A study of Mus musculus with 6 samples.

Results

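Ribosomes are built in the nucleolus, where RNA polymerase I transcribes the long precursor of ribosomal RNA and a succession of protein complexes modifies, folds and cuts it before the subunits leave for the cytoplasm. Small nucleolar ribonucleoproteins (snoRNPs) guide methylation and pseudouridylation of the precursor, the small subunit processome prepares the 40S subunit, and the PeBoW complex with further factors prepares the 60S subunit. Many of these genes are known targets of the transcription factor MYC and are expressed more strongly in growing cells. The genes described here are 38 nucleolar and ribosomal RNA processing factors, chosen by name from this pathway, out of 18194 mouse genes with a probe set of their own on the arrays. All 38 were found by their symbol. Each was represented by 1 probe set, the brightest on average among those that carry only its symbol, and its level was compared between the shTNC and shControl arrays.

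The samples were endothelial cells (ECs) sorted from the lungs of NSG mice, an immunodeficient strain that lacks mature lymphocytes but keeps macrophages and neutrophils, injected intravenously at 6 to 8 weeks of age with MDA-MB-231-LM2 cells, a lung-metastatic derivative of a human breast cancer line. The cancer cells expressed either a control shRNA (shControl) or an shRNA against the matrix protein tenascin C (shTNC), and the lungs, taken on day 20 (given as 3 weeks in the labels), held metastases in both groups. The authors reported that tenascin C knockdown reduced lung colonization by these cells. Whether the metastatic load differed between the lungs measured here, and its part in the results, was not tested. The knockdown was made in human cancer cells that the sort removes, so the mouse arrays do not measure it. ECs were selected by CD31 after depletion with a panel of negative markers, and 3 biological replicates a group were each measured on 1 Affymetrix GeneChip Mouse Genome array.

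The sorted cells expressed endothelial genes. All 16 endothelial markers examined were well above the near-background level of 7.48 on the log2 scale, which 95% of 44 probe sets for olfactory receptors did not exceed, and their mean level ran from 13.34 to 13.40 on the shControl arrays and from 13.36 to 13.39 on the shTNC arrays. Markers of other cells were also detected. The mean of 16 macrophage and monocyte markers lay between 8.81 and 8.91 in shControl and between 8.50 and 8.82 in shTNC. The low end came from the second shTNC array alone, and the third lay within the range of shControl. Of the 16, 13 had a lower mean in shTNC (81%, beside 58.3% of all genes). Adgre1, Itgam and Siglecf were under the near-background level. All 6 mesothelial markers were higher in shTNC, with means from 7.72 to 7.86 in shControl against 7.79 to 8.98 in shTNC, but Wt1 and Lrrn4 lay under the near-background level and the second shTNC array was within the range of shControl. Of 9 lymphocyte markers, 8 were lower in shTNC, with means of 7.25 to 7.41 on the shControl arrays and 7.16 to 7.21 on the shTNC arrays, all under the near-background level. Fibroblast markers had a median difference of 0.19 over 10 genes, with means of 9.87 to 10.25 on the shControl arrays and 10.15 to 10.62 on the shTNC arrays. The mean of 11 epithelial markers varied most among arrays, with 8.79 to 9.56 for shControl and 8.60 to 9.84 for shTNC. The part of these cells in the results below was not tested, and in sorted bulk samples fewer cells of a type and less RNA per cell cannot be told apart. The second shControl array stood apart from the other 5 along the first principal component, which carried 36.6% of the variance (-43.6 against -11.1 to 21.1).

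All 38 nucleolar genes were expressed above the near-background level, and none passed an adjusted p of 0.05 in limma between shTNC and shControl. The smallest adjusted p among them was 0.335, and 0 of 45101 probe sets (0.0%) passed anywhere on the array. At an unadjusted p under 0.05, 3 of the 38 were lower in shTNC (Nop10, Wdr43 and Fbl, 7.89%), beside a background of 7.12% of all genes, and 1 was higher (Gar1, 2.63%), beside 4.54% of all genes. Both shares were near the background. Of the 38 genes, 20 had a lower (52.6%) and 18 a higher mean in shTNC, beside 58.3% of all genes with a lower mean. The median difference was -0.022 on the log2 scale, beside -0.030 over all genes and -0.024 over the 13444 genes above the near-background level. Single differences ran from -0.23 (Nop10) to 0.29 (Rcl1), and their median size without regard to sign was 0.085, beside 0.10 over all genes. By the brightest probe set none of the 38 reached a difference of 0.3 in either direction, though Rcl1 came close. That size was exceeded by 9.12% of all genes and 9.93% of those above the near-background level. It was not set in advance, and further probe sets of Noc4l (-0.39) and Noc3l (0.37) went past it.

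**Figure D1:**
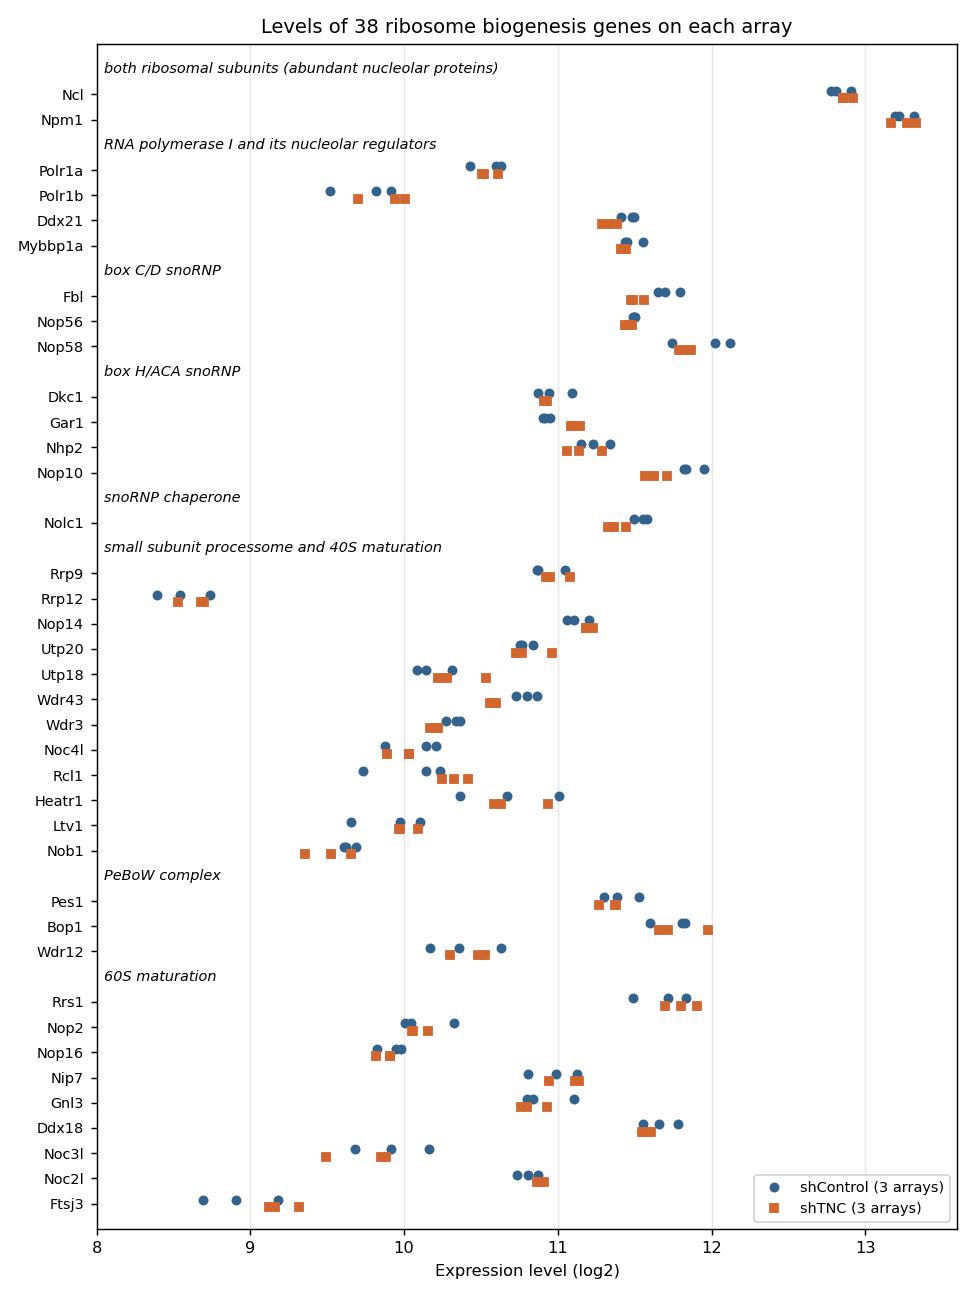
Log2 expression level of each of the 38 genes (rows, grouped by role) on each of the 6 arrays, with circles for the 3 shControl arrays and squares for the 3 shTNC arrays. The groups overlapped in 29 genes, and the level of a gene depends on its probes, so the rows should not be ranked against each other.

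The intervals show what sizes of difference limma left possible with the 6 arrays. Limma's SE and intervals are moderated, with the variance of each gene drawn towards a value shared by all probe sets. They are therefore not the spread of a gene's own replicates, as for Nop56 (SD of 0.0061 in shControl and 0.024 in shTNC), which had the shortest interval. The half-width of limma's 95% interval had a median of 0.22 over the 38 genes and ran from 0.18 to 0.39. The interval lay wholly within 0.3 of zero for 14 genes, within 0.4 for 29 and within 0.5 for 35. The lowest bound of any gene was -0.53 (Noc3l) and the highest 0.61 (Rcl1). For scale, Myc itself was at 10.86, 11.00 and 10.79 on the shControl arrays and at 9.95, 10.26 and 10.42 on the shTNC arrays, in the order of replicates 1 to 3. All 3 shTNC values of Myc were below all 3 shControl values. The mean difference was -0.67 ± 0.13 (limma's moderated SE, n = 3 a group). Its 95% interval ran from -0.97 to -0.37, with an adjusted p of 0.190 in limma. The intervals of all 38 nucleolar genes lay above -0.67, and those of 37 lay above -0.49, the median difference of 40 DNA replication and mitosis genes. Noc3l was the exception. These reference values have errors of their own. The lists were chosen with earlier results of these data known, and the contrast between them is a description without a test.

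**Figure D2:**
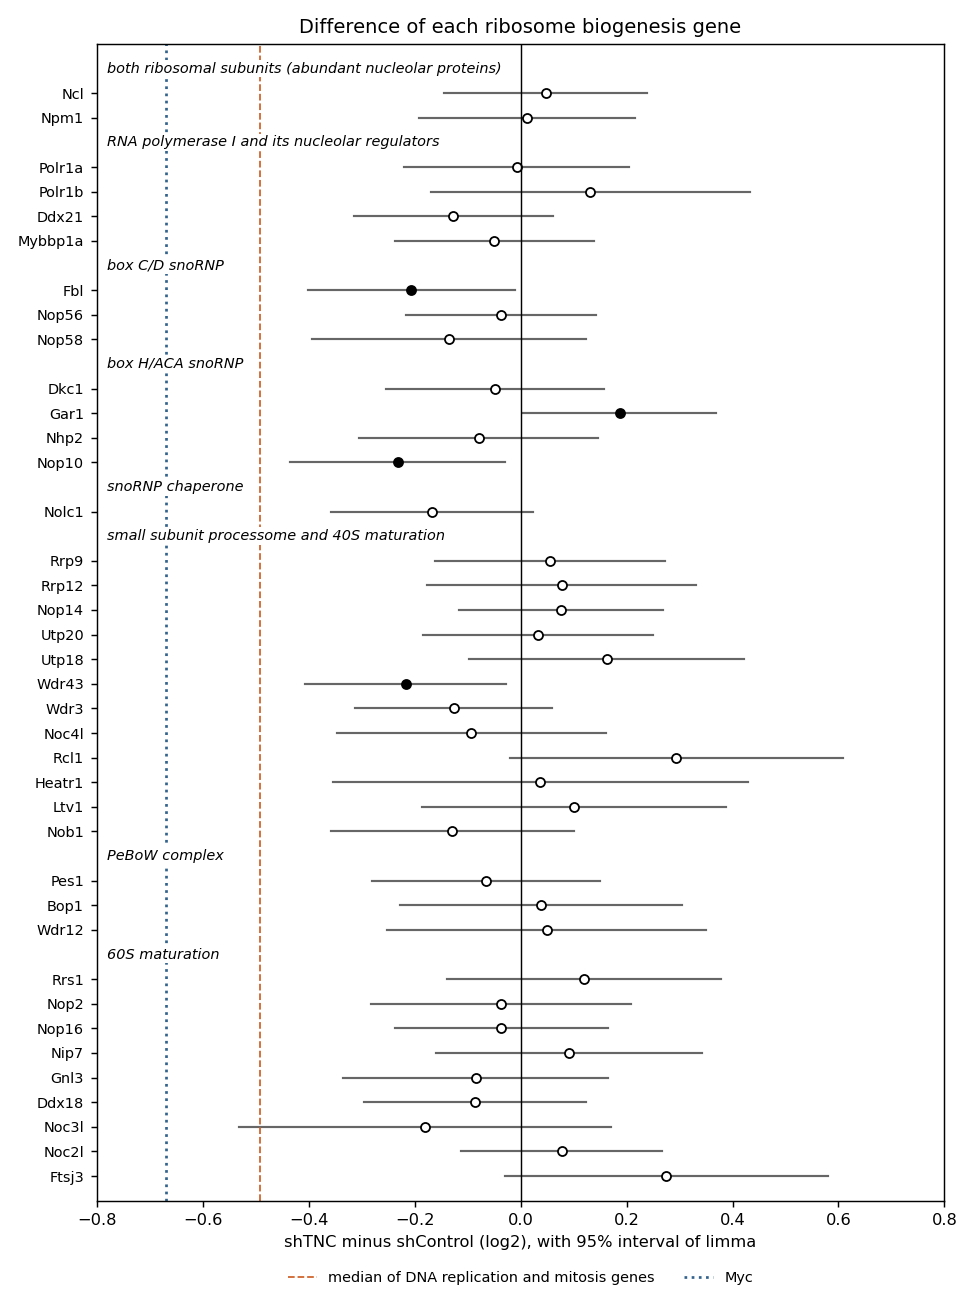
Difference of each of the 38 genes (shTNC minus shControl, log2) with limma's 95% interval, where filled circles mark an unadjusted p under 0.05 (Nop10, Wdr43 and Fbl lower, Gar1 higher). The dashed line at -0.49 is the median of 40 DNA replication and mitosis genes and the dotted line at -0.67 is Myc, and the 38 intervals ended between -0.53 and 0.61.

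The most abundant nucleolar proteins come first. Nucleophosmin (Npm1), a histone and ribosome chaperone of the outer nucleolus, was at 13.32, 13.22 and 13.19 on the shControl arrays and at 13.16, 13.27 and 13.33 on the shTNC arrays. The lowest and the highest of the 6 values both belonged to shTNC, and the groups overlapped throughout. The difference was 0.012 ± 0.089 (limma's moderated SE here and below, n = 3 a group). Nucleolin (Ncl), which binds ribosomal RNA precursors and nucleolar chromatin, differed by 0.047 ± 0.084, also with overlapping groups. A further probe set of Ncl gave 0.23 ± 0.10, with an unadjusted p of 0.0453 in limma and an adjusted p of 0.376, while its remaining 3 probe sets lay between -0.062 and 0.050.

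Among the genes of ribosomal DNA transcription, Mybbp1a, a nucleolar regulator of RNA polymerase I and of several transcription factors, was at 11.55, 11.44 and 11.45 in shControl and at 11.44, 11.41 and 11.45 in shTNC. Its first shControl array was the highest of the 6 and the other arrays lay close together. The mean difference was -0.049 ± 0.082. The largest subunits of RNA polymerase I, encoded by Polr1a and Polr1b, differed by -0.0074 ± 0.092 and 0.13 ± 0.13. Other probe sets of Polr1a above the near-background level gave -0.14 ± 0.11 and -0.27 ± 0.13, with overlapping groups. Their unadjusted p values were 0.249 and 0.0738 in limma. The RNA helicase Ddx21, which couples polymerase I transcription to processing, was lower on every shTNC array (11.29 to 11.38) than on any shControl array (11.41 to 11.50). Its difference of -0.13 ± 0.08 had an unadjusted p of 0.158 in limma, and its other probe set gave no such separation. Of 14 further polymerase I genes that could be matched among 19 listed, 7 were lower and 7 higher, the median difference was 0.0024, and no gene reached an unadjusted p under 0.05 in limma in either direction.

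The 3 box C/D snoRNP proteins, which carry out and scaffold ribose methylation of ribosomal RNA, all had lower means in shTNC, with a median of -0.14. Fibrillarin (Fbl), the methyltransferase itself, was at 11.79, 11.70 and 11.65 in shControl and at 11.56, 11.47 and 11.49 in shTNC. Every shTNC array was below every shControl array. The difference was -0.21 ± 0.08, with an unadjusted p of 0.0405 and an adjusted p of 0.366 in limma, and a further probe set of Fbl gave -0.16 ± 0.09, again without overlap of the groups. Nop56, a core scaffold of the same particle, also separated the groups, with 11.49 to 11.50 in shControl against 11.44 to 11.48 in shTNC, but by only -0.037 ± 0.078. Its partner Nop58 lay between 11.74 and 12.12 in shControl and between 11.79 and 11.86 in shTNC. The second shControl array was the lowest of the 6 for Nop58. The difference was -0.14 ± 0.11 with all arrays. Leaving out 1 array at a time gave from -0.25 without shControl 2 (unadjusted p of 0.0268 in limma) to -0.055 without shControl 1 (0.645), and the p stayed above 0.05 in the other 5 cases.

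The box H/ACA snoRNP proteins, which convert uridine to pseudouridine in ribosomal RNA and also belong to the telomerase particle, did not share a direction. Nop10, the smallest of the 4 core proteins, was at 11.95, 11.83 and 11.82 in shControl and at 11.63, 11.71 and 11.57 in shTNC. All shTNC values lay below the shControl values. This was the lowest difference of the 38 genes, -0.23 ± 0.09, with an unadjusted p of 0.0296 and an adjusted p of 0.335 in limma. Its other probe set, also well above background, differed by only -0.017 ± 0.078. Gar1 went the other way, with 10.95, 10.90 and 10.92 in shControl and 11.09, 11.15 and 11.10 in shTNC. The replicates of Gar1 lay close together in both groups, and the groups did not overlap. The difference was 0.19 ± 0.08, with an unadjusted p of 0.0451 and an adjusted p of 0.376 in limma. Dyskerin (Dkc1), the pseudouridine synthase, differed by -0.049 ± 0.090 and Nhp2, its RNA-binding partner, by -0.079 ± 0.098, both with overlapping groups. A further probe set of Dkc1 gave 0.21 ± 0.11, with no overlap and the opposite sign.

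Nolc1, a phosphoprotein that chaperones both classes of snoRNP between the nucleolus and Cajal bodies, was at 11.50, 11.56 and 11.58 in shControl and at 11.44, 11.33 and 11.36 in shTNC. Here too the groups did not overlap. The difference was -0.17 ± 0.08 with an unadjusted p of 0.0779 in limma, and its 2 other probe sets gave 0.076 and -0.079 with overlapping groups.

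The largest group held 12 factors of the small subunit processome and of later 40S maturation, of which 4 were lower and 8 higher in shTNC, with a median of 0.046. Wdr43, a scaffold protein of the processome's UTP-A module that loads onto the nascent transcript, was at 10.87, 10.80 and 10.73 in shControl and at 10.59, 10.56 and 10.60 in shTNC. The 3 shTNC arrays lay close together and below all shControl arrays. The difference was -0.22 ± 0.08, with an unadjusted p of 0.0301 and an adjusted p of 0.337 in limma, but a further probe set of Wdr43 had the opposite sign, 0.15 ± 0.10. Another WD-repeat processome protein, Wdr3, was at 10.27 to 10.37 in shControl and at 10.17 to 10.22 in shTNC, a difference of -0.13 ± 0.08 without overlap. Rcl1, which is required for cleavage of the precursor on the way to 18S RNA, had the highest difference of the 38 genes, 0.29 ± 0.14. Its shTNC values (10.25 to 10.42) were above the shControl values (9.73 to 10.23), of which the third was far below the other two. The unadjusted p was 0.0632 in limma, and the difference was 0.14 without that array.

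The remaining 9 genes of this group had overlapping groups. Utp18, Rrp9 and Utp20, components of the processome or of its U3 snoRNP, differed by 0.16 ± 0.11, 0.056 ± 0.094 and 0.033 ± 0.094. Nop14 and its partner Noc4l, which act together on pre-40S particles, differed by 0.076 ± 0.084 and -0.093 ± 0.111. A further probe set of Noc4l gave the most negative value of any probe set of these genes, -0.39 ± 0.10, without overlap of the groups. Its unadjusted p was 0.00584 and its adjusted p 0.253 in limma. The remaining probe sets of Noc4l were also lower, by -0.084 ± 0.094 and -0.18 ± 0.11, with overlapping groups. Heatr1, a very large processome scaffold, varied most between replicates (10.36 to 11.01 within shControl) and differed by 0.037 ± 0.170. The 40S maturation factors Rrp12, Ltv1 and Nob1, the last being the nuclease that makes the mature end of 18S RNA, differed by 0.078 ± 0.111, 0.10 ± 0.12 and -0.13 ± 0.10.

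For the 60S subunit, the PeBoW complex of Pes1, Bop1 and Wdr12 is needed for processing of the precursors of 28S and 5.8S RNA. Bop1 was at 11.83, 11.60 and 11.81 in shControl and at 11.98, 11.72 and 11.66 in shTNC. The groups overlapped, with both the highest value in shTNC and the lowest in shControl. The difference was 0.039 ± 0.116, and those of Pes1 and Wdr12 were -0.065 ± 0.093 and 0.049 ± 0.131. A further probe set of Pes1 had the opposite sign, 0.23 ± 0.14, and one of Wdr12 gave 0.30 ± 0.17, both with overlapping groups.

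Among 9 further 60S factors, 5 were lower and 4 higher, with a median of -0.036 and overlapping groups in all 9. Rrs1, which brings 5S RNA and its proteins into the particle, was at 11.83, 11.49 and 11.72 in shControl and at 11.80, 11.70 and 11.90 in shTNC. Its second shControl array was the lowest of the 6. The difference was 0.12 ± 0.11, and 0.025 without that array. Ftsj3, a methyltransferase-like processing factor, had the highest difference of this group, 0.28 ± 0.13 with an unadjusted p of 0.0709 in limma. It lay between 8.69 and 9.18 in shControl and between 9.12 and 9.32 in shTNC, and its difference was 0.16 without shControl 2 and 0.40 without shControl 1 (unadjusted p of 0.223 and 0.0105). Noc3l had the lowest difference, -0.18 ± 0.15, which ran from -0.30 without shControl 2 to -0.055 without shTNC 2. For Noc3l a further probe set gave 0.37 ± 0.14 with an unadjusted p of 0.0321 in limma. The RNA methyltransferase Nop2 differed by -0.037 ± 0.107 and Nop16 by -0.036 ± 0.087. Gnl3, the nucleolar GTPase known as nucleostemin, and the helicase Ddx18 differed by -0.085 ± 0.109 and -0.085 ± 0.091. Nip7 and Noc2l, which take part in 60S assembly, differed by 0.091 ± 0.109 and 0.078 ± 0.083. Further probe sets of Nop16, Nip7 and Noc2l had the opposite sign, with 0.14 ± 0.12, -0.15 ± 0.13 and -0.18 ± 0.18. Those of Rrs1 (-0.035) and Ddx18 (0.012 for one of them) also changed sign but were close to no difference.

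Counted by overlap, all 3 shTNC arrays lay below all 3 shControl arrays in 7 of the 38 genes (18.4%: Ddx21, Fbl, Nop56, Nop10, Nolc1, Wdr43 and Wdr3), beside 12.4% of all genes, and above them in 2 (5.26%: Gar1 and Rcl1), beside 7.36% of all genes. With the mean of all probe sets of a gene, 6 in place of 9 genes had groups that did not overlap. The median SD within groups of the 38 genes was 0.094 on the log2 scale. It was 0.13 over all genes and 0.12 over those above the near-background level. Among the pathway lists described below it ran from 0.061 (cytosolic ribosomal proteins) to 0.20 (DNA replication and mitosis), with 0.099 for the RNA exosome.

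The mean of the 38 genes on each array, taken as the deviation from each gene's mean over the 6 arrays, was 0.079, -0.035 and -0.033 in shControl and 0.018, -0.030 and 0.00025 in shTNC. The first shControl array was the highest of the 6 and the shTNC arrays lay within the range of the shControl arrays. The group means were 0.0036 and -0.0036. The first shControl array held the highest value of the 6 for 14 of the 38 genes (36.8%), beside 16.3% of all genes. The second, which stood apart over all probe sets, held the highest value for 7 (18.4%, beside 32.7% of all genes) and the lowest for 11 (28.9%, beside 16.4%). The 40 DNA replication and mitosis genes had another order over the arrays, with 0.0049, 0.42 and 0.24 in shControl and -0.30, -0.20 and -0.17 in shTNC, where all shTNC arrays were below all shControl arrays. Other lists described below also had all shTNC arrays below all shControl arrays, but by less. The 38 MYC targets outside the nucleolus were at 0.061, 0.015 and 0.0016 in shControl and -0.0079, -0.053 and -0.017 in shTNC. The 48 further small subunit factors were at 0.067, -0.0023 and 0.0026 against -0.014, -0.028 and -0.026.

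**Figure D3:**
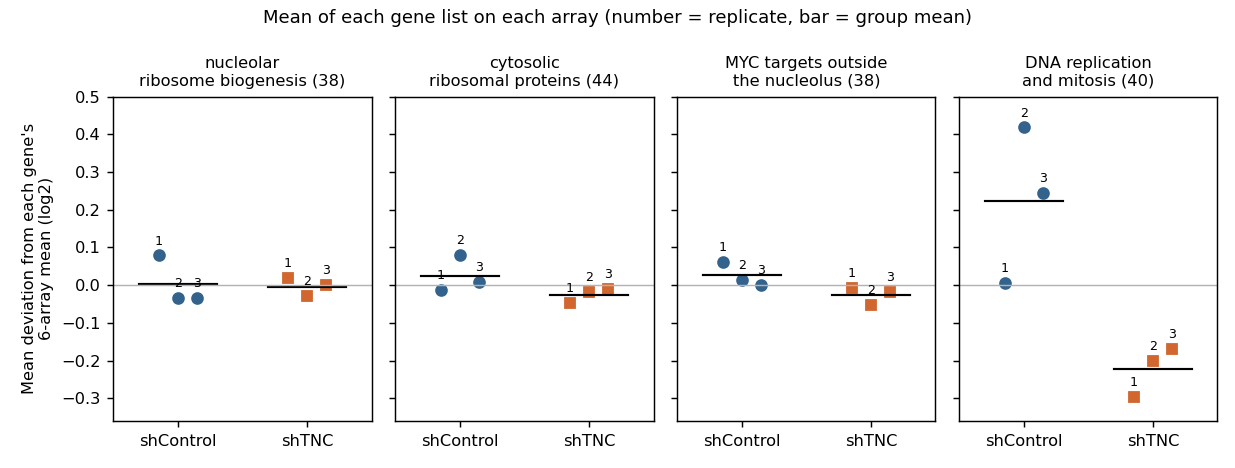
Mean of each gene list on each array (y axis, log2 deviation from each gene's 6-array mean; circles shControl, squares shTNC, the number beside a point is the replicate and the bar is the group mean). The 38 nucleolar genes lay between -0.035 and 0.079 with the groups overlapping, while the DNA replication and mitosis genes ran from -0.30 to 0.42 without overlap. The groups did not overlap for the MYC targets outside the nucleolus either, over a narrower range from -0.053 to 0.061.

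Most of these genes had more than 1 probe set, which allowed a second reading of the same gene. Whether the probe sets of a gene detect the same transcripts was not checked. Of the 38 genes, 24 had several, and of the 23 with several above the near-background level, 10 had the same sign in all of them and 13 did not. The 33 other probe sets above that level split into 17 lower and 16 higher, with a median of -0.0022. At an unadjusted p under 0.05 in limma, 1 of them was lower (Noc4l) and 2 were higher (Ncl and Noc3l), beside 6.33% lower and 9.22% higher among 11841 such probe sets of all genes. For the 3 genes whose brightest probe set was lower at that level, the further probe set differed by -0.16 for Fbl, by -0.017 for Nop10 and by 0.15 for Wdr43. Gar1 had a single probe set. The probe sets used for Fbl, Gar1, Nhp2 and Nop56 are of a type that can detect several transcripts, and those for Rrs1 and Noc4l may cross-hybridise, so their values may include related RNAs.

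**Figure D4:**
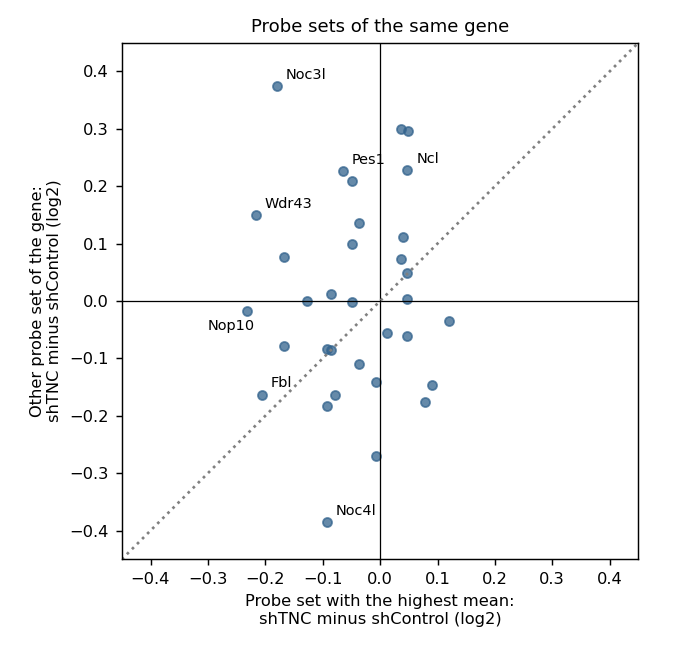
Difference of the brightest probe set of a gene (x axis) against that of each other probe set of the same gene above the near-background level (y axis), both as shTNC minus shControl in log2, with the dotted line marking equal values. The 33 points spread over all 4 quadrants, with the most negative for Noc4l at -0.39 and the most positive for Noc3l at 0.37.

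The other genes of the pathway were described in the same way, to be read against 58.3% of all genes lower and, at an unadjusted p under 0.05 in limma, 7.12% lower and 4.54% higher. Of 48 further factors of the small subunit processome and 40S maturation, 33 were lower in shTNC (68.8%), the median was -0.048, and at that p 2 were lower (4.17%) and 0 higher. They were Utp15, a subunit of the UTP-A module to which Wdr43 also belongs, with -0.38 ± 0.11, and the helicase Ddx49, with -0.32 ± 0.10. Of 50 further 60S factors, 29 were lower (58.0%) with a median of -0.012, and 2 were lower and 2 higher at that p (4.0% each). They included Nol9, a kinase of precursor processing, with -0.29 ± 0.10, Nol8 with 0.48 ± 0.18 and the export adaptor Nmd3 with -0.23 ± 0.09. Among the 14 subunits and cofactors of the RNA exosome, which trims precursor ends, 7 were lower and 7 higher with a median of 0.015. Exosc9 (-0.35 ± 0.10) and Exosc3 (-0.25 ± 0.09) were lower at that level and the helicase Mtrex (0.26 ± 0.10) was higher. None of these genes passed an adjusted p of 0.05 in limma. For the further small subunit factors, all shTNC arrays lay below all shControl arrays in 11 (22.9%) and above them in 2 (4.17%). For the further 60S factors these counts were 7 (14.0%) and 2 (4.0%), beside 12.4% and 7.36% of all genes.

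Of 79 cytosolic ribosomal proteins, the products assembled by this pathway, 44 had a probe set with a single symbol. Among them 31 were lower in shTNC (70.5%, beside 58.3% of all genes), with a median of -0.066 (beside -0.030) and a range from -0.26 to 0.18. All shTNC arrays lay below all shControl arrays in 10 (22.7%, beside 12.4% of all genes) and above them in 3 (6.82%, beside 7.36%). At an unadjusted p under 0.05 in limma, 2 were lower (Rpl12 and Rpl14, 4.55%, beside 7.12% of all genes) and 0 higher. The differences of all these lists were small beside those of the 40 DNA replication and mitosis genes, of which 39 were lower and 25 were lower at that level. The examples with the smallest p were Rrm2, a subunit of ribonucleotide reductase, with -0.79 ± 0.11, the DNA polymerase subunit Pole with -0.73 ± 0.10 and the spindle motor Kif11 with -0.61 ± 0.09, each with an adjusted p of 0.182 in limma.

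**Figure D5:**
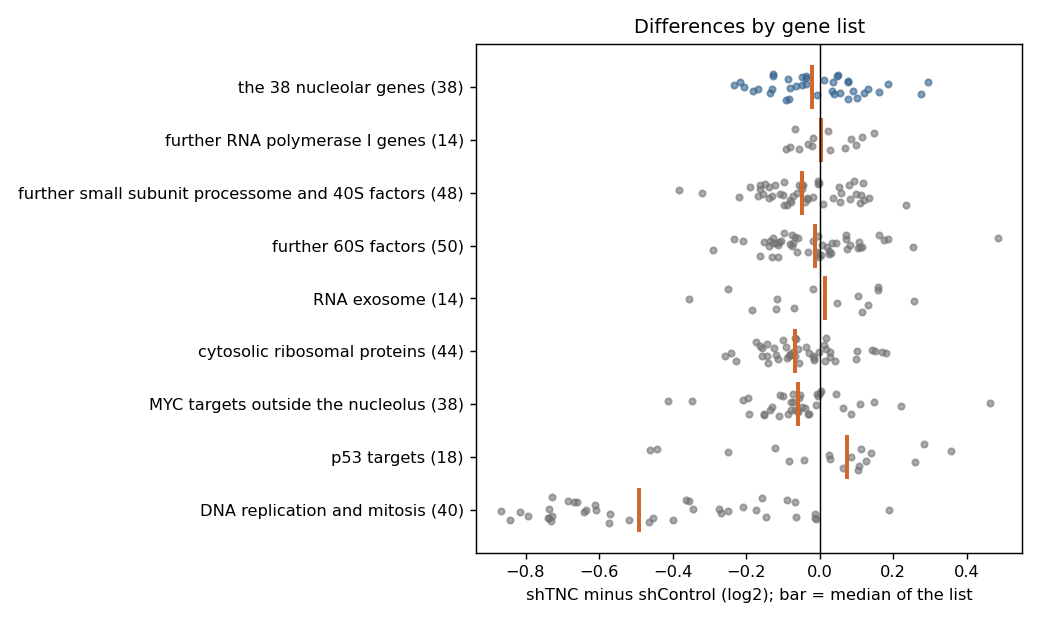
Difference of each gene (points, shTNC minus shControl, log2) and median (bar) of the 38 nucleolar genes and of 8 further lists, with the number of genes in parentheses and a random vertical offset. The medians of the ribosome lists lay between -0.066 and 0.015 and that of the DNA replication and mitosis genes at -0.49.

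The MYC network itself was mixed. Beside Myc, its paralogue Mycn was lower (-0.74 ± 0.22), and Mnt, a repressor that competes for the same partner MAX, was higher (0.48 ± 0.12), both at an unadjusted p under 0.05 in limma and without overlap of the groups. Their adjusted p values were 0.266 and 0.231. Of the 12 genes of the network, 7 were lower, with a median of -0.043. Of 38 MYC targets outside the nucleolus, 29 were lower (76.3%, beside 58.3% of all genes) with a median of -0.060. All shTNC arrays lay below all shControl arrays in 12 of these targets (31.6%, beside 12.4% of all genes) and above them in 4 (10.5%, beside 7.36%). At an unadjusted p under 0.05 in limma 2 were lower and 2 higher (5.26% each, beside 7.12% and 4.54%). Mthfd2 and Shmt1, enzymes of folate metabolism, differed by -0.41 ± 0.11 and -0.35 ± 0.10, and the transcription factor Tfap4 by 0.46 ± 0.12. Among 18 p53 targets, which are known to respond when ribosome assembly is disturbed, 6 were lower (33.3%) and 12 higher with a median of 0.074, and 3 were lower (16.7%) and 2 higher (11.1%) at that level, beside 58.3% of all genes lower and the shares of 7.12% and 4.54%.

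Promoter windows were available for 33 of the 38 genes from RefSeq (GRCm38.p6), each with 250 bases before and 50 after an annotated start. Those of Fbl, Npm1, Bop1, Rrs1 and Rrp12 were not analysed here. The letters CACGTG, the E-box bound by MYC with MAX, were searched on both strands. They stood in the windows of 7 of the 33 genes (21.2%), beside 8.09% of the 27025 genes with a window. The share was 11.4% of the 10786 genes that lay above the near-background level and had a window under the same symbol. The 7 genes were Wdr43, Utp18, Ltv1, Pes1, Nop2, Mybbp1a and Utp20. The letters CCGGAA, the core of many ETS factor sites, stood on either strand in 14 of the 33 (42.4%), beside 16.7% and 29.0%, and the letters of the motifs cannot overlap. The windows of the 4 genes with an E-box and the smallest p are printed because they show where these letters lie beside the start of a gene lower at an unadjusted p under 0.05 (Wdr43), of others whose means were higher (Utp18 and Ltv1) and of a subunit of PeBoW (Pes1). Capitals mark CACGTG, and each window reads in the direction of transcription.
Wdr43 (chr17:71615965-71616264, plus strand): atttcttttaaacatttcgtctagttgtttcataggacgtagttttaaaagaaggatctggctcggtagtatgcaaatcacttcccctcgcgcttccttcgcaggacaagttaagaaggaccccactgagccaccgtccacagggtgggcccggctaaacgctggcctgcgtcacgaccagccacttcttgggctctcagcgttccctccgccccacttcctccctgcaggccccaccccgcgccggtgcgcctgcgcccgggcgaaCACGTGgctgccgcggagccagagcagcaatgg
Utp18 (chr11:93885717-93886016, minus strand): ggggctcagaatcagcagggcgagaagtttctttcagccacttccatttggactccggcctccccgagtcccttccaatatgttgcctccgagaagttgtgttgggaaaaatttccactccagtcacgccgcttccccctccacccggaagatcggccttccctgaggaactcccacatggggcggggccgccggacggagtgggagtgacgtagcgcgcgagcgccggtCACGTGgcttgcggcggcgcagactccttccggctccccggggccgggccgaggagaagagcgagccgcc
Ltv1 (chr10:13193088-13193387, minus strand): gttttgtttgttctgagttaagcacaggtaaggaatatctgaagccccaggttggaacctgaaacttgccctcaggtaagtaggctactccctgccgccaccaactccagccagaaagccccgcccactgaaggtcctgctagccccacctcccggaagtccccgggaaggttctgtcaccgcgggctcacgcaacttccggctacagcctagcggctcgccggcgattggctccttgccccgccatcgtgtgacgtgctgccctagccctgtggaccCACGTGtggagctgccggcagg
Pes1 (chr11:3963725-3964024, plus strand): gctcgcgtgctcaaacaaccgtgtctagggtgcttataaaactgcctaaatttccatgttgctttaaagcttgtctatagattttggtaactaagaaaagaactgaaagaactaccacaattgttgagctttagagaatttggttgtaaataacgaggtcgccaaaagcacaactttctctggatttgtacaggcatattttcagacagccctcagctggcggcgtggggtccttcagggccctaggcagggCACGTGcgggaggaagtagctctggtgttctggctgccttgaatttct

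The motif began 17 bases after the start in Wdr43, 28 after it in Ltv1, 2 after it in Pes1 and 20 before it in Utp18. The differences of the brightest probe sets of these 4 genes were -0.22, 0.10, -0.065 and 0.16 in the same order, and further probe sets of Wdr43 and Pes1 had the opposite sign. Of the 7 genes with the letters, 4 were lower in shTNC, with a median difference of -0.037 and a range from -0.22 to 0.16. Of the 26 without them, 15 were lower, with a median of -0.037 and a range from -0.23 to 0.29. A match of letters is not a binding site, and binding was not measured here.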

How the data were processed

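RNA of sorted lung ECs was hybridized to Affymetrix GeneChip arrays of the mouse genome, 1 for each of 3 shControl and 3 shTNC samples, from 2 ng of RNA labelled with a 3' IVT Pico kit. According to the methods, the authors processed the raw array files with RMA, using Chipster. What they deposited is 1 log2 level for each probe set and array. The arrays had been normalized to each other before deposit, and the sorted values of any pair of arrays differed by at most 0.070. Whether the values come from RMA or from another summary was not settled here. Because arrays were normalized to each other, a difference is relative to the other probe sets, and the number of arrays limits the precision.

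Symbols came from the platform annotation. Of 45101 probe sets, 34958 carried 1 symbol, 932 several and 9211 none, and probe sets with several symbols were not used for genes, which left out many ribosomal proteins. Differences between shTNC and shControl were fitted by lmFit and eBayes of limma 3.58.1 (R 4.3.3), with two-sided tests, on all 45101 probe sets. Benjamini-Hochberg adjustment covered all of them, with a threshold of 0.05. Differences are given as shTNC minus shControl with limma's moderated SE, which draws each variance towards a value shared by all probe sets. Counts, medians and shares of a list were set beside those of the 18194 genes, with no test of a list. Of 464 entries in the lists of members, pathway genes and cell markers, 408 were matched. The members and lists were chosen with earlier results of these data known. Values on every array were given for members with an unadjusted p under 0.05 and for the brightest member of each role without one. Of each pathway list, up to 3 genes with the smallest p were named, other genes in small counts having been added after their values were seen. The limma fit of shTNC against shControl was checked on simulated arrays with known shifts, and the alternative fits were not. Alternatives changed the normalization, the filter on low values, the variance model, the array weights, the probe sets of a gene, a block for the replicate number and the arrays included.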

Additional observations from a re-analysis of the deposited data

How the results depend on the processing

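No member passed an adjusted p of 0.05 in limma under any of the 13 alternatives, and the direction of single differences changed for at most 7 of the 38 genes, under the mean of all probe sets of a gene. Quantile normalization, centring on the array median, array weights and leaving out probe sets near background changed none of the counts at an unadjusted p under 0.05, which stayed at 3 lower and 1 higher. With an intensity trend and robust eBayes, 4 were lower and 2 higher, and 9 probe sets of the whole array passed an adjusted p of 0.05. With the mean of all probe sets of a gene, 1 member was lower. The medians under that setting were -0.018 for the further small subunit factors, -0.0066 for MYC targets outside the nucleolus and -0.33 for DNA replication and mitosis, and the genes at an unadjusted p under 0.05 were 2 for further 60S factors, 6 for ribosomal proteins and 3 for p53 targets. The replicate numbers did not pair the arrays (correlations of deviations between equal numbers of -0.085, 0.041 and 0.10), and with the number as a replicate block 0 members were lower and 1, Rcl1, was higher at an unadjusted p under 0.05, with 1 ribosomal protein at that level.

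Leaving out each array in turn gave 0 to 3 members lower, with 0 lower without shControl 1, shTNC 1 or shTNC 3 and 1 without shTNC 2. It gave 0 to 2 higher, with 2, Rcl1 and Ftsj3, without shControl 1 and 0 without each of the other 5 arrays. The unadjusted p of Nop10 stayed under 0.05 in 3 of 6, that of Wdr43 in 2, that of Fbl in 1 and that of Gar1 in 0. The probe sets past an adjusted p of 0.05 numbered 0 to 4, with 2 without shControl 1 and 4 without shControl 3. Members whose groups did not overlap numbered 9 to 15, where fewer arrays make a separation easier, with 15 without shControl 2 or shControl 3. The median of the members ran from -0.052 to 0.017, with the positive value without shControl 1. Over the same 6 settings the median ran from -0.033 to 0.042 for further polymerase I genes, from -0.054 to -0.0077 for further 60S factors, from -0.038 to 0.050 for the exosome, from -0.072 to -0.022 for ribosomal proteins, from -0.071 to 0.0090 for the MYC network, from -0.65 to -0.36 for DNA replication and mitosis and from -0.0088 to 0.14 for p53 targets. The genes at an unadjusted p under 0.05 numbered 0 to 1 for further polymerase I genes, 1 to 3 for further 60S factors, 0 to 2 for ribosomal proteins, 3 to 5 for the MYC network and 2 to 3 for p53 targets. The cause of these shifts was not tested. The 3 arrays a group limit the precision, with interval half-widths from 0.18 to 0.39 among the members.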
